A study of Mus musculus with 16 samples.

Results

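Complement is a set of blood and tissue proteins that tag cells and debris and that call phagocytes to them. In the classical pathway C1q, built from A, B and C chains, binds a target and starts a chain of cleavages that splits C4 and then C3. The fragment C3b stays on the target and is read by receptors on phagocytes, while the small fragments C3a and C5a act on G protein-coupled receptors. In brain most C1q is made by microglia, the resident phagocytes, C4 and C3 come mainly from glia, and C1q, C3 and the receptor complement receptor 3 take part in the removal of synapses. The data examined here are the reads of 9 genes of this system in mouse medial prefrontal cortex (mPFC): the chain genes C1qa, C1qb and C1qc, the cascade proteins C4b and C3, the receptors C3ar1, C5ar1 and Itgam, and the inhibitor Serping1. They were chosen by gene symbol, with earlier results of these data known. All 9 were found among the 26625 entries of the gene table and were among the 18826 entries with enough reads to test.

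The tissue came from 16 samples of male C57BL/6 mice aged 8 to 10 weeks at the start, each called a mouse below. All received an adeno-associated virus (AAV) in both sides of the mPFC 20 days before behavioural testing, carrying EGFP behind the CMV promoter together with a short hairpin RNA (shRNA) behind the U6 promoter. The hairpin was directed either against Kdm7a, which encodes a histone demethylase, or was a non-targeting control (shNC). Neither promoter is restricted to a cell type, which cells carried the hairpin was not measured here, and no group without virus was included. The mice then went through 10 days of place conditioning with saline alone or with morphine at 10 mg/kg alternating with saline, and tissue was taken on day 17, after 7 days of withdrawal. With the control virus there were 3 mice on saline (Ctrl + Saline) and 4 on morphine (Ctrl + Morphine), and with the Kdm7a hairpin there were 5 on saline (Kdm7a-shRNA + Saline) and 4 on morphine (Kdm7a-shRNA + Morphine). Whether tissue of several animals was pooled is not given in the sources used here, so p-values measure the spread between these samples.

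Total RNA was turned into full-length cDNA and sequenced on a nanopore instrument, so that a read stands for 1 cDNA molecule after PCR. The mice had 6596991 to 12418112 counted reads, and the deepest was Kdm7a-shRNA + Morphine mouse 3. Levels below are normalized CPM, which are reads scaled to the size of each library. Kdm7a itself, the target of the hairpin, was at 9.42 ± 0.353 CPM (SD, n = 3) in Ctrl + Saline, 7.72 ± 1.13 (n = 4) in Ctrl + Morphine, 5.55 ± 0.571 (n = 5) in Kdm7a-shRNA + Saline and 4.94 ± 1.53 (n = 4) in Kdm7a-shRNA + Morphine, from 35 to 93 reads a mouse. It was lower with the hairpin by 0.76 on the log2 scale under saline (edgeR quasi-likelihood test, Benjamini-Hochberg adjusted p = 0.0153), and its log2 fold change under morphine was -0.67 (adjusted p = 0.0506). A gene was called, or passed, at an adjusted p below 0.05 together with a change of 1.5-fold or more. As a check for a library deposited more than once, a chi-square statistic of counts over genes, divided by its degrees of freedom, was between 8.33 and 51.2 for the 25 pairs within groups, so none was treated as a duplicate.

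The 3 C1q chain genes lie side by side on chromosome 4 and are all read from the minus strand. In the GRCm38 annotation C1qb runs from 136880129 to 136886187, C1qc from 136889804 to 136893065 and C1qa from 136895917 to 136898803, so the cluster spans 18675 bases with gaps of 3616 and 2851 bases, and each gene has 3 exons. C3 (chromosome 17, 57203970 to 57228136) and C4b (chromosome 17, 34728380 to 34743882) have 41 exons each on the minus strand. C3ar1 (chromosome 6, 122847138 to 122856161) and C5ar1 (chromosome 7, 16246743 to 16259540) have 2 exons each, Serping1 (chromosome 2, 84765387 to 84775444) has 8, and all 3 are on the minus strand. Itgam (chromosome 7, 128062640 to 128118491, plus strand) has 30 exons and shares 55809 bases with the gene model Gm49368 on the same strand, so the division of its reads with that model is uncertain. C4b has a near-identical neighbour, C4a, which was not analysed here, and its reads carry the same doubt.

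RefSeq promoter windows of GRCm38.p6, from 250 bases before to 50 bases after the start site, were matched for C1qb, C1qc, C3, C3ar1, C5ar1 and Itgam, that is 6 of the 9 genes. C1qa, C4b and Serping1 were not matched. The windows of C1qb, C1qc and Itgam, genes of the myeloid lineage, are shown because they hold the letters of a site known from myeloid promoters. The letters GAGGAA, the core bound by the myeloid factor PU.1, are in capitals on either strand, with the first letter at position -30 from the start site of C1qb, -193 of C1qc and -84, -15 and 32 of Itgam. The window of C3 is shown with a loose form of the NF-kappa B site, GGGA and CC with any 4 bases between, in capitals on either strand. Each window is written 5′ to 3′ along the gene.
C1qb, chr4:136886151-136886450, minus strand: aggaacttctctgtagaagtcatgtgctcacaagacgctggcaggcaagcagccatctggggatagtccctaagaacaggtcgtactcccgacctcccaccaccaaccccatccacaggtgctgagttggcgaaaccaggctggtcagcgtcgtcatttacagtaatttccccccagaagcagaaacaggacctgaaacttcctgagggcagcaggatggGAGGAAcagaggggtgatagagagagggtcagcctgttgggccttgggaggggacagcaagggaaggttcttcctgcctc
C1qc, chr4:136892865-136893164, minus strand: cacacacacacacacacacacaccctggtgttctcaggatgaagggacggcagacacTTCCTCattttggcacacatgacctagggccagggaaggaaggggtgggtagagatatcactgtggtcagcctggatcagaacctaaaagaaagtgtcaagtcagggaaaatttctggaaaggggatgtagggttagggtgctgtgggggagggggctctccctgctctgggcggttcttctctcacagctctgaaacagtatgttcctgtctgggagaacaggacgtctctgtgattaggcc
Itgam, chr7:128062390-128062689, plus strand: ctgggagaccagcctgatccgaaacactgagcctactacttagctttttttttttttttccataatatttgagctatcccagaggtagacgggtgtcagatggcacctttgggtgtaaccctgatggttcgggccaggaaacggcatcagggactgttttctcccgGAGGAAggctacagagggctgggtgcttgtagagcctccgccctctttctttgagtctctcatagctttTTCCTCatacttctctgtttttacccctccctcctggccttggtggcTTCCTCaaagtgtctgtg
C3, chr17:57228087-57228386, minus strand: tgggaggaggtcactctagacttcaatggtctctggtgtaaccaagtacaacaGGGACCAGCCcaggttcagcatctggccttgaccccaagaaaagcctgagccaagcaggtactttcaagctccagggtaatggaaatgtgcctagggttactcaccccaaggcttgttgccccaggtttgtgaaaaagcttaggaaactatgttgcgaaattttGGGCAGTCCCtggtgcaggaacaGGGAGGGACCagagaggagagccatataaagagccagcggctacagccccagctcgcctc
GAGGAA was present in 3 of the 6 windows (C1qb, C1qc and Itgam) and in 28.3% of all 32851 windows of this length. The loose NF-kappa B site was present in 3 of the 6 (C1qb, C1qc and C3) and in 20.7% of all windows. Of the other letters searched on both strands, a loose interferon response element (GAAA and GAAA with any 2 bases between) and a loose STAT site (TTC and GAA with any 3 bases between) were in 0 of the 6, against 3.44% and 8.3% of all windows. A match is a description of the letters and not a bound site.

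Under saline, 7 of the 9 complement genes were higher in mPFC with the Kdm7a hairpin and none was lower, beside 7.43% of all tested entries called higher and 9.31% called lower. The genes that rose were C1qa, C1qb, C1qc, C4b, C3ar1, Itgam and Serping1, with fold changes from 2.42 (Itgam) to 4.12 (C1qb). The median log2 fold change of the 9 was 1.496, and that of all tested entries was 0.01. C3 and C5ar1 had log2 fold changes of 1.58 and 0.98 that did not pass. In bulk tissue, more cells of a type and more RNA per cell cannot be told apart.

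Under morphine, in a comparison that shares no mouse with the one under saline, 5 of the 9 were called higher with the hairpin and none lower, beside 2.86% of all tested entries called higher and 4.83% called lower. These were C1qa, C1qb, C1qc, C3ar1 and Serping1. The log2 fold changes of the 9 had a median of 1.49, against -0.0045 for all tested entries, and the 4 genes that did not pass lay between 1.10 (C5ar1) and 1.91 (C3). Over both treatments together, all 9 were called higher, beside 7.68% of all tested entries called higher and 9.93% called lower.

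The counts under each treatment depended on single mice. Under saline the count of 7 became 4 without Kdm7a-shRNA + Saline mouse 2 or mouse 3, 2 without Ctrl + Saline mouse 1 or mouse 2, and 1, C1qb, without Ctrl + Saline mouse 3. Under morphine the count of 5 became 0 without Kdm7a-shRNA + Morphine mouse 3 and 9 without mouse 4. It was 3 without Kdm7a-shRNA + Morphine mouse 1 or Ctrl + Morphine mouse 3, 2 without Ctrl + Morphine mouse 2 and 1 without Ctrl + Morphine mouse 4. Averaged over both treatments it was 8 or 9 whichever mouse was left out, and the gene lost was C5ar1, without Kdm7a-shRNA + Morphine mouse 3 (adjusted p = 0.0503, edgeR quasi-likelihood test).

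**Figure D1:**
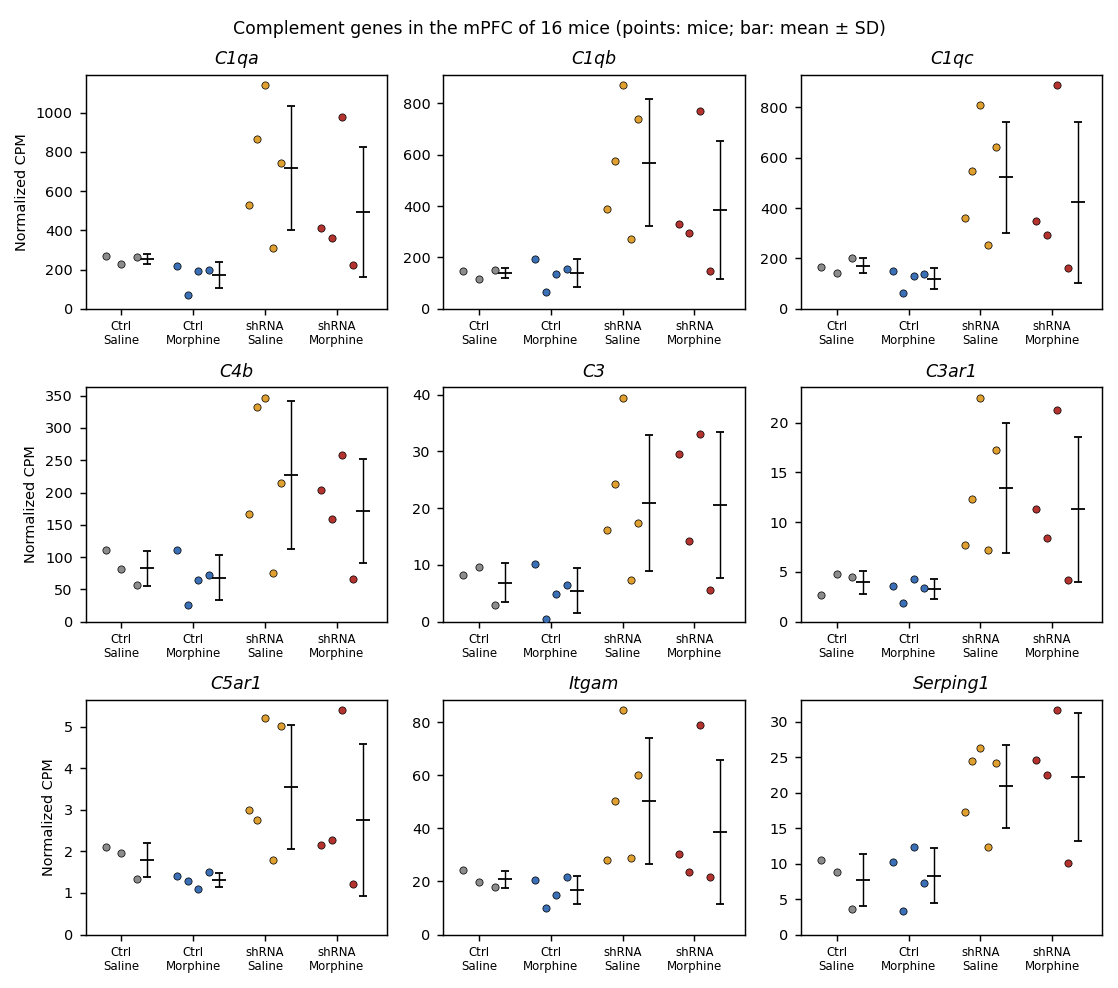
Normalized CPM of each complement gene (vertical axes, linear and starting at 0) in each mouse of the 4 groups, with the group mean ± SD as a bar beside the points. For all 9 genes the SD was larger in both Kdm7a-shRNA groups than in either Ctrl group: C1qa ran from 309 to 1142 CPM under Kdm7a-shRNA + Saline and from 227 to 271 under Ctrl + Saline.

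C1q is the recognition molecule of the classical pathway, and a working molecule needs all 3 chains. C1qa was at 271, 227 and 267 CPM in the Ctrl + Saline mice and at 220.1, 72.6, 194 and 198 in the Ctrl + Morphine mice, in replicate order. It was at 531, 868, 1142, 309 and 742 CPM in the Kdm7a-shRNA + Saline mice and at 413, 361, 979 and 224 in the Kdm7a-shRNA + Morphine mice. Under each treatment the lowest hairpin mouse was above the highest control mouse, although Kdm7a-shRNA + Morphine mouse 4 was close to its controls. The fold change was 2.82 under saline (log2 1.496, SE 0.45, adjusted p = 0.0263) and 2.89 under morphine (log2 1.53, SE 0.42, adjusted p = 0.0296, edgeR quasi-likelihood test).

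C1qb encodes the B chain. Its levels were 146, 116 and 152 CPM in Ctrl + Saline and 196, 65.4, 136 and 154 in Ctrl + Morphine. With the hairpin they were 389, 575, 872, 272 and 739.9 CPM under saline and 329, 295, 771 and 149 under morphine. The groups did not overlap under saline, whereas under morphine the lowest hairpin mouse lay inside the control range. The fold change was 4.12 under saline (log2 2.04, SE 0.47, adjusted p = 0.00652) and 2.80 under morphine (log2 1.49, SE 0.42, adjusted p = 0.0351).

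C1qc encodes the C chain. It was at 167, 143 and 202 CPM in Ctrl + Saline and at 151, 60.9, 129 and 138 in Ctrl + Morphine. With the hairpin it was at 359, 548, 809, 253 and 642 CPM under saline and at 348, 293, 889 and 162 under morphine. Neither pair of groups overlapped. The fold change was 3.06 under saline (log2 1.61, SE 0.46, adjusted p = 0.0203) and 3.53 under morphine (log2 1.82, SE 0.43, adjusted p = 0.0160). All 3 chain genes had their highest level of a group in the same hairpin mouse and their lowest in the same hairpin mouse.

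C4b, cleaved by the C1 complex to start the C3 convertase, was at 110.5, 80.9 and 56.6 CPM in Ctrl + Saline and at 110.4, 25.4, 64.4 and 73.0 in Ctrl + Morphine. With the hairpin it was at 166, 333, 347, 75.6 and 215 CPM under saline and at 203, 159, 257 and 66.8 under morphine. In each treatment 1 hairpin mouse, mouse 4, lay within the control range and the others were above it. The log2 fold change passed under saline (1.46, SE 0.49, adjusted p = 0.0452) and did not pass under morphine (1.33, SE 0.46, adjusted p = 0.0764).

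C3, the protein on which all complement pathways meet, was at 8.19, 9.56 and 2.91 CPM in Ctrl + Saline and at 10.1, 0.427, 4.87 and 6.42 in Ctrl + Morphine, where the second mouse had 4 reads. With the hairpin it was at 16.1, 24.3, 39.3, 7.31 and 17.4 CPM under saline and at 29.6, 14.1, 33.0 and 5.64 under morphine. The groups overlapped under both treatments through hairpin mouse 4. The log2 fold changes were 1.58 under saline (SE 0.66, adjusted p = 0.0985) and 1.91 under morphine (SE 0.63, adjusted p = 0.0622), and the SE was the widest of the 9 genes in both. Over both treatments C3 passed, with a log2 fold change of 1.75 (SE 0.46, adjusted p = 0.00847).

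C3ar1, the receptor of C3a, was at 2.64, 4.78 and 4.50 CPM in Ctrl + Saline and at 3.59, 1.92, 4.26 and 3.42 in Ctrl + Morphine. With the hairpin it was at 7.70, 12.3, 22.5, 7.20 and 17.3 CPM under saline and at 11.3, 8.39, 21.2 and 4.16 under morphine. All saline hairpin mice were above all saline controls, and under morphine only hairpin mouse 4 fell inside the control range. The fold change was 3.34 under saline (log2 1.74, SE 0.47, adjusted p = 0.0160) and 3.47 under morphine (log2 1.79, SE 0.45, adjusted p = 0.0192).

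C5ar1, the receptor of C5a, had the fewest reads, from 9 to 63 a mouse. Its mean level was 1.80 ± 0.417 CPM (SD, n = 3) in Ctrl + Saline, 1.32 ± 0.173 (n = 4) in Ctrl + Morphine, 3.56 ± 1.49 (n = 5) in Kdm7a-shRNA + Saline and 2.76 ± 1.83 (n = 4) in Kdm7a-shRNA + Morphine. The groups overlapped under both treatments. The log2 fold changes were 0.98 (SE 0.43, adjusted p = 0.113) and 1.10 (SE 0.42, adjusted p = 0.105), the smallest of the 9 in both comparisons, and over both treatments the gene passed at 1.04 (SE 0.30, adjusted p = 0.0151). Hc, the mouse gene for C5 itself, had 0 to 10 reads a mouse and was not tested.

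Itgam encodes CD11b, which pairs with the beta chain CD18, encoded by Itgb2, to form complement receptor 3 for C3 fragments. Itgam was at 24.5, 19.8 and 18.02 CPM in Ctrl + Saline and at 20.5, 10.1, 14.97 and 21.5 in Ctrl + Morphine. With the hairpin it was at 28.0, 50.2, 84.5, 28.8 and 59.9 CPM under saline and at 30.3, 23.5, 78.9 and 21.7 under morphine. The groups did not overlap under either treatment, but under morphine mice 2 and 4 were barely above the highest control and mouse 3 stood far above the rest. The log2 fold change passed under saline (1.28, SE 0.43, adjusted p = 0.0420) and not under morphine (1.21, SE 0.40, adjusted p = 0.0643).

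The partner chain Itgb2 gave the same calls. It was at 6.43 ± 1.76 CPM (SD, n = 3) in Ctrl + Saline and 23.5 ± 9.29 (n = 5) in Kdm7a-shRNA + Saline, a log2 fold change of 1.87 (SE 0.53, adjusted p = 0.0207). Under morphine it was at 7.58 ± 2.08 (n = 4) against 20.5 ± 19.4 (n = 4), a log2 fold change of 1.45 (SE 0.48, adjusted p = 0.0660).

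Serping1 encodes the C1 inhibitor, which blocks the proteases that act with C1q. It was at 10.6, 8.88 and 3.58 CPM in Ctrl + Saline and at 10.3, 3.31, 12.3 and 7.28 in Ctrl + Morphine. With the hairpin it was at 17.2, 24.4, 26.3, 12.4 and 24.1 CPM under saline and at 24.7, 22.5, 31.6 and 10.1 under morphine. The saline groups did not overlap, and under morphine mouse 4 lay within the control range. The fold change was 2.71 under saline (log2 1.44, SE 0.42, adjusted p = 0.0222) and 2.70 under morphine (log2 1.43, SE 0.39, adjusted p = 0.0273).

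The same mice were at the ends of the range for gene after gene. Kdm7a-shRNA + Saline mouse 3 was the highest of its group for 9 of 9 genes and mouse 4 the lowest for 8 of 9. Kdm7a-shRNA + Morphine mouse 3 was the highest for 9 of 9 and mouse 4 the lowest for 9 of 9, and Ctrl + Morphine mouse 2 was the lowest for 8 of 9. The genes therefore do not count as 9 independent readings of a group. Without both Ctrl + Morphine mouse 2 and Kdm7a-shRNA + Morphine mouse 3, 0 of 9 genes passed under morphine and their log2 fold changes were between 0.40 (Itgam) and 1.19 (C3), while over both treatments all but C5ar1 (adjusted p = 0.0699) still passed by the edgeR quasi-likelihood test. Groups did not overlap for 6 of 9 genes under saline (C1qa, C1qb, C1qc, C3ar1, Itgam and Serping1), beside 11.1% of all tested entries higher without overlap. Under morphine this held for 3 of 9 (C1qa, C1qc and Itgam), beside 6.37%. For 0 of 9 were all 9 hairpin mice above all 7 control mice, beside 1.86%.

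Morphine itself was compared within each virus. Under the control virus 0 of 9 genes were called between Ctrl + Morphine and Ctrl + Saline, beside 0% of all tested entries, and 0 had an unadjusted p under 0.05 in edgeR's quasi-likelihood test, beside 11.7% of all tested entries. Their log2 fold changes were between -0.57 (C1qa) and 0.10 (Serping1), with SEs from 0.43 to 0.70 and adjusted p between 0.662 and 0.998. C1qa was the only gene of the 9 whose Ctrl + Morphine mice were all below the Ctrl + Saline mice, beside 12.4% of all tested entries without overlap in either direction.

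With the hairpin, too, 0 of 9 were called between Kdm7a-shRNA + Morphine and Kdm7a-shRNA + Saline, beside 0.00531% of all tested entries, and 0 had an unadjusted p under 0.05, beside 7.02%. The log2 fold changes were between -0.56 (C1qb) and 0.10 (Serping1), with adjusted p between 0.802 and 0.997, and the groups overlapped for all 9, beside 1.94% of all tested entries without overlap. The interaction, which asks whether the hairpin's fold change differed between morphine and saline, was called for 0 of 9, beside 0.085% of all tested entries, with 0 at an unadjusted p under 0.05, beside 10.7%. Its log2 values were between -0.56 (C1qb) and 0.33 (C3), with SEs from 0.55 to 0.89 and adjusted p between 0.810 and 0.999. DESeq2 and edgeR's exact test called 0 of 9 for both morphine comparisons, and DESeq2 called 0 of 9 for the interaction.

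**Figure D2:**
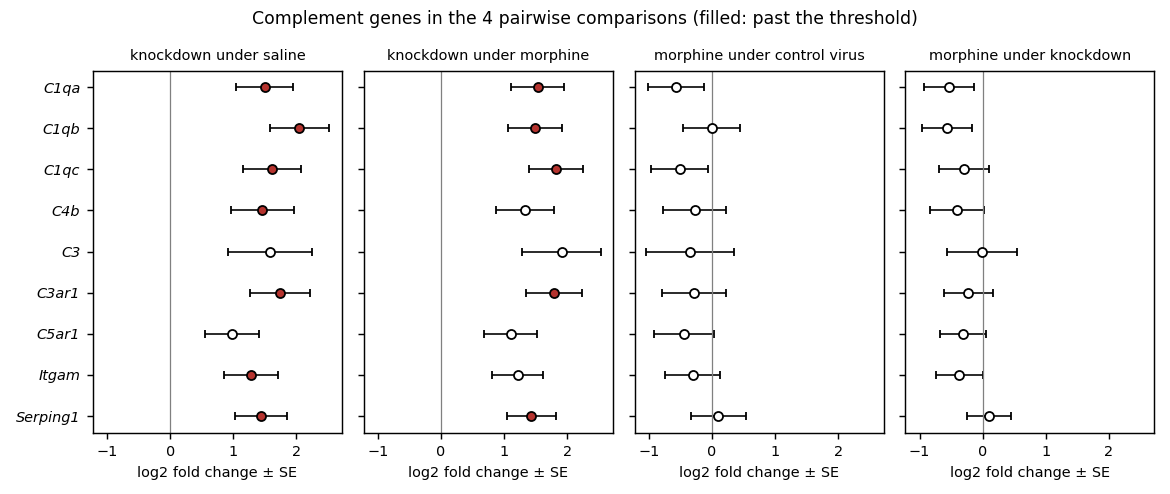
Log2 fold change ± SE of the 9 genes in the 4 pairwise comparisons, from edgeR, with filled points past the threshold. All points lie right of 0 for the hairpin under saline and under morphine, 7 and 5 of them filled, and 0 are filled for morphine under either virus.

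Other genes of the cascade were read from lists of its branches, whose counts stand beside the shares of all tested entries called higher (7.43% under saline and 2.86% under morphine) or lower (9.31% and 4.83%). No list was tested against those shares, and no conclusion about a list is drawn from a count of 1 or 2. Of the classical and lectin pathway proteins 10 were tested, and 6 were higher with the hairpin under saline. These were the 3 C1q chain genes, C4b, and the protease genes C1ra and C1s1, whose products act with C1q. C1ra was at 1.15 ± 0.664 CPM (SD, n = 3) in Ctrl + Saline and 3.78 ± 1.40 (n = 5) in Kdm7a-shRNA + Saline, a log2 fold change of 1.71 (SE 0.43, adjusted p = 0.0113). C1s1 had 0 to 63 reads a mouse and a log2 fold change of 2.45 (SE 0.71, adjusted p = 0.0213). Both have close paralogs, and Gm16567 overlaps C1s1 on the other strand, so their reads are uncertain. Under morphine 3 of the 10 were higher, all C1q chain genes, and C1ra (1.29, adjusted p = 0.0554) and C1s1 (1.10, adjusted p = 0.244) did not pass. The list's median log2 fold change was 1.48 under saline and 1.19 under morphine.

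Of the C3 and alternative pathway proteins 3 were tested, and 0 passed under either treatment, with medians of 0.34 and 0.65. At an unadjusted p under 0.05 the edgeR quasi-likelihood test gave 1 gene, C3, in each. Of the terminal pathway proteins, which form the membrane pore, only C8g had enough reads to test, and it did not pass (adjusted p = 0.956 under saline and 0.329 under morphine). Of 6 receptor genes tested, C3ar1, Itgam, Itgb2 and Itgax were higher under saline, and C3ar1 and Itgax under morphine. Itgax encodes CD11c, the alpha chain of complement receptor 4. It was at 4.59 ± 0.846 CPM (SD, n = 3) in Ctrl + Saline and 24.8 ± 9.15 (n = 5) in Kdm7a-shRNA + Saline, a log2 fold change of 2.44 (SE 0.56, adjusted p = 0.00650), and its log2 fold change under morphine was 2.13 (SE 0.51, adjusted p = 0.0173).

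Of 9 regulators tested, Serping1 and Clu were higher in both treatments and the list's median was 0.37 in both. Clu encodes clusterin, an astrocyte-rich secreted chaperone that also blocks the terminal complex. It was at 1160.5 ± 91.3 CPM (SD, n = 3) in Ctrl + Saline and 2881 ± 708 (n = 5) in Kdm7a-shRNA + Saline, a log2 fold change of 1.31 (SE 0.21, adjusted p = 8.21e-04). Under morphine it was at 1241 ± 126 against 2528 ± 793 (n = 4 each), a log2 fold change of 1.03 (SE 0.20, adjusted p = 0.00589). Cell-surface regulators did not pass. Cd55, which speeds the decay of the C3 convertase, had the lowest log2 fold changes of the list, -0.36 under saline and -0.31 under morphine. Of the 9 regulators, 7 were above 0 under each treatment.

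Of 7 tested neuronal genes with CUB and sushi domains, which resemble complement regulators, Susd4 was higher under saline (log2 0.73, SE 0.18, adjusted p = 0.00897) and Sez6 lower under morphine (log2 -0.69, SE 0.18, adjusted p = 0.0229), and the medians were -0.03 and -0.29. Of 11 tested C1q-domain genes outside the cascade, C1qtnf5 (log2 1.56, SE 0.38, adjusted p = 0.00893) and C1qtnf12 (log2 0.84, SE 0.27, adjusted p = 0.0372) were higher under saline and 0 passed under morphine, where 1 had an unadjusted p under 0.05. The median log2 fold change of these 11 genes was 0.42 under saline and -0.37 under morphine, with 7 and 5 of them above 0. C1qtnf5 lies within Mfrp on the same strand, so its reads are uncertain.

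**Figure D3:**
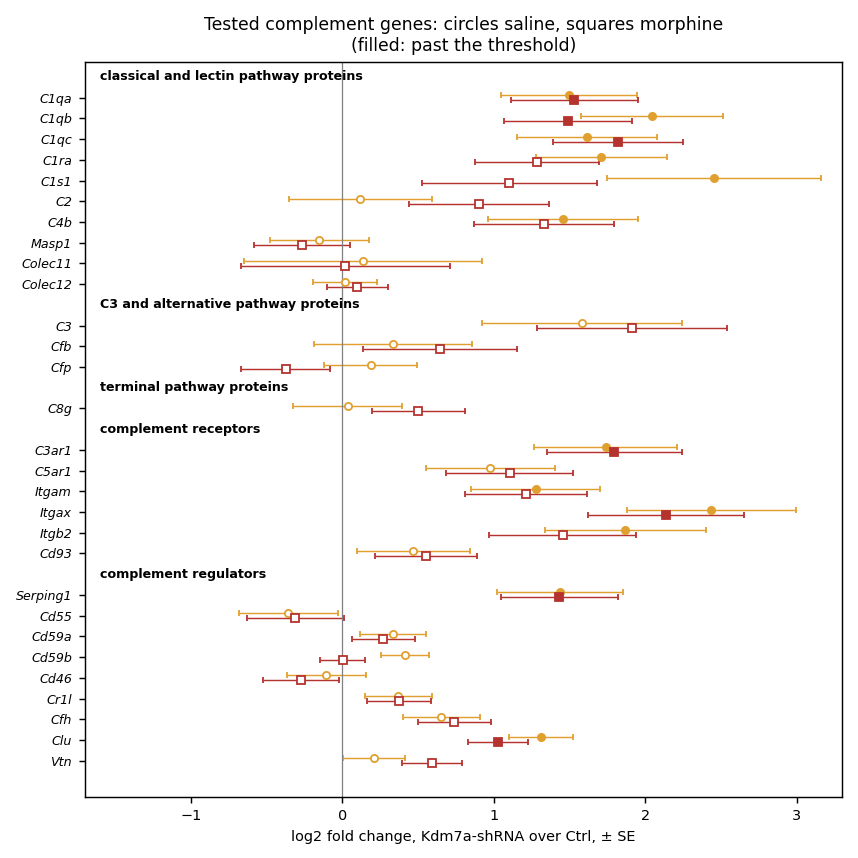
Log2 fold change ± SE, Kdm7a-shRNA over Ctrl, of every tested gene of the cascade lists, with circles for saline, squares for morphine and filled symbols past the threshold. The C1q chain genes, C4b and the receptors other than Cd93 sit at or above about 1, while Masp1, Colec12 and Cd46 sit near or below 0.

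Markers of microglia moved with the complement genes. Of 18 microglia markers, all tested and none at 0 in any mouse, 16 were higher with the hairpin under saline and 11 under morphine, with median log2 fold changes of 1.45 and 1.31, beside 7.43% and 2.86% of all tested entries called higher. Their summed level was 2056 to 2978 CPM in Ctrl + Saline, 1109 to 2327 in Ctrl + Morphine, 3905 to 11525 in Kdm7a-shRNA + Saline and 2586 to 10879.8 in Kdm7a-shRNA + Morphine. The most read of them were Ctss, a lysosomal protease (log2 fold change 1.27 under saline and 1.28 under morphine), and Tyrobp, a signalling adaptor (2.16 and 1.90), and all 4 values passed. Tmem119 and Sall1 did not pass under either treatment, and P2ry12, P2ry13, Csf1r, Siglech and Selplg did not pass under morphine. The part of microglia number or state in the complement values was not tested.

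Set against these markers, the group means of the 3 C1q chain genes summed differed by less than the SD within any group, without a test. The summed CPM of C1qa, C1qb and C1qc per 100 CPM of the 18 markers was 23.2 ± 2.19 (SD, n = 3) in Ctrl + Saline, 22.2 ± 3.01 (n = 4) in Ctrl + Morphine, 23.4 ± 1.80 (n = 5) in Kdm7a-shRNA + Saline and 24.0 ± 2.47 (n = 4) in Kdm7a-shRNA + Morphine. The 16 mice ranged from 17.9 to 26.6, and all 4 groups overlapped. Ctss and Tyrobp, at means of 1444 and 1062 CPM over all mice, made up much of the marker sum. The ratio therefore says little about the less read markers.

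Gene by gene, the difference between hairpin and control means was taken again after subtracting each mouse's mean log2 CPM of the 18 markers. C1qa then differed by 0.01 under saline and 0.32 under morphine, from 1.37 and 1.43 before. C1qb differed by 0.57 under saline, where its level relative to the markers was 1.48 ± 0.063 (SD, n = 3) in Ctrl + Saline and 2.05 ± 0.106 (n = 5) in Kdm7a-shRNA + Saline without overlap, and by 0.23 under morphine. C1qc differed by 0.15 and 0.50, C4b by -0.04 and 0.23, C3ar1 by 0.25 and 0.42 and Serping1 by 0.14 and 0.32. Itgam (-0.21 and -0.07) and C5ar1 (-0.53 and -0.34) were lower relative to the markers, and C3 was higher (0.17 and 1.02). Relative to the markers, Ctrl + Morphine mouse 2, with 4 C3 reads, was at -5.46 for C3. The other mice of that group were at -3.11 to -2.32. For C1qa it was at 1.34, against 2.09 to 2.18 in the others. The same mouse was also the lowest of its group for C1qb (1.19), C1qc (1.09), C4b (-0.16) and Serping1 (-3.02). For C5ar1 it was the highest (-4.25). The morphine differences of all these genes therefore rest in part on that mouse. These differences are descriptions on the log2 scale, without a test.

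**Figure D4:**
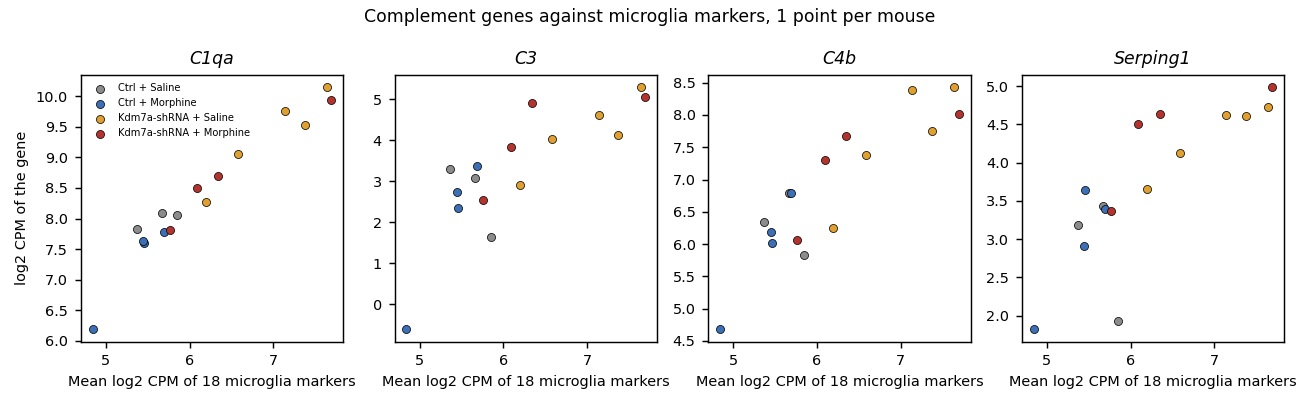
Log2 CPM of C1qa, C3, C4b and Serping1 (vertical axes) against the mean log2 CPM of the 18 microglia markers (horizontal axes), 1 point per mouse, coloured by group. C1qa minus the marker mean lies between 2.05 and 2.62 log2 units in 15 mice and at 1.34 in Ctrl + Morphine mouse 2, the lowest point on the marker axis.

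Other cell types were read in the same way, beside 7.43% of all tested entries called higher under saline and 2.86% under morphine. Again no conclusion about a list is drawn from a count of 1 or 2 markers. Reactive astrocyte genes also moved with the hairpin: 7 of 10 were higher under saline and 6 of 10 under morphine, with medians of 1.75 and 1.86, and their summed level was 173 to 296 CPM in Ctrl + Saline, 109.8 to 355 in Ctrl + Morphine, 362 to 1009 in Kdm7a-shRNA + Saline and 234 to 1005 in Kdm7a-shRNA + Morphine. Of them Vim, an intermediate filament gene, had log2 fold changes of 2.43 and 2.25 and passed in both, and Gfap passed under saline (1.36, adjusted p = 0.0485) and not under morphine (0.61, adjusted p = 0.406). C4b, Serping1 and C3 can also be made by astrocytes, and the part of these cells in their values was not tested.

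Of 11 general astrocyte markers 2 were higher under saline, Aldh1l1 (log2 1.11) and Mlc1 (1.02), and 0 under morphine, with 7 and 4 at an unadjusted p under 0.05. The most read of them, Aldoc and Slc1a2, had log2 fold changes of -0.22 and -0.36 under saline and 0.14 and 0.20 under morphine, none of which passed. Slc1a2 had the lowest value of the list under saline. The list's median log2 fold change was 0.49 under saline and 0.20 under morphine. Of the 11 markers, 8 were above 0 under saline and 10 under morphine. Aldoc, at a mean of 8144 CPM over all mice, made up most of the list's summed level. That level was 10787 ± 1280 CPM (SD, n = 3) in Ctrl + Saline and 9572 ± 732 (n = 5) in Kdm7a-shRNA + Saline. Of 7 border macrophage markers tested 0 were called in either treatment, and Ms4a7, their most read gene, had log2 fold changes of 0.24 and 1.40 (adjusted p = 0.792 and 0.107). Of 5 blood myeloid markers tested 0 were called, with 2 above 0 under saline and 3 under morphine, and medians of -0.15 and 0.37. Their most read genes went opposite ways: Ly6c2 was at -0.44 and -0.39, and Plac8 at 0.42 and 0.37. The border macrophage and blood myeloid lists each had 0 genes at an unadjusted p under 0.05 in the edgeR quasi-likelihood test under saline and 1 under morphine. Among endothelial markers 3 of 6 were higher under saline and 1 under morphine. Among fibroblast markers 1 of 7 was higher under saline and 0 under morphine, and 0 of 6 mural and 0 of 6 oligodendrocyte markers were called in either, with 1 mural gene at an unadjusted p under 0.05 under saline and 4 under morphine, and 1 oligodendrocyte gene under each. Of 10 neuronal markers, Gad2 and Map2 were lower under saline and 0 were called under morphine, with medians of -0.21 and -0.04. As a check of the labelled brain tissue, none of the neuronal markers was at 0 in any mouse, and their summed level was 2324 to 4259 CPM.

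The ratios of reads between the 3 C1q chain genes were compared within each mouse, and none of the differences between groups passed after adjustment. C1qb reads per C1qa read stood at 0.541 ± 0.0299 (SD, n = 3) in Ctrl + Saline, 0.817 ± 0.0951 (n = 4) in Ctrl + Morphine, 0.807 ± 0.132 (n = 5) in Kdm7a-shRNA + Saline and 0.767 ± 0.0688 (n = 4) in Kdm7a-shRNA + Morphine. The Ctrl + Saline mice, from 0.512 to 0.572, were below all other mice. C1qb reads per C1qc read were 0.815 ± 0.0628 in Ctrl + Saline, 1.13 ± 0.109 in Ctrl + Morphine, 1.09 ± 0.0385 in Kdm7a-shRNA + Saline and 0.935 ± 0.0584 in Kdm7a-shRNA + Morphine. C1qc reads per C1qa read had group means of 0.668, 0.723, 0.740 and 0.821 in the same order.

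The ratios were examined after the values had been seen. Between Ctrl + Saline and Kdm7a-shRNA + Saline C1qb per C1qa differed by 0.56 on the log2 scale, with a two-sided exact permutation p = 0.0179, the smallest that 3 against 5 mice allow. Between Ctrl + Saline and Ctrl + Morphine it differed by 0.59 (exact permutation p = 0.0286, again the smallest possible). For C1qb per C1qc all 4 pairwise comparisons reached their smallest possible exact p. Over the 12 comparisons of 3 ratios the lowest Benjamini-Hochberg adjusted p was 0.0571, so none passed 0.05. The ratio compares reads and is not corrected for transcript length (1040 bases for C1qa, 1088 for C1qb and 1203 for C1qc), which is the same in every mouse.

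**Figure D5:**
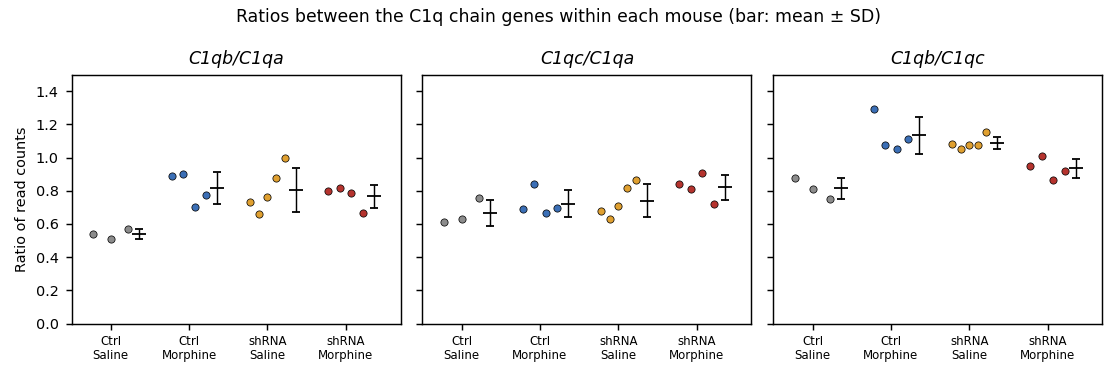
Ratio of read counts between pairs of C1q chain genes in each mouse (vertical axis, starting at 0), with group mean ± SD as a bar. The Ctrl + Saline mice lie lowest for C1qb per C1qa, at 0.512 to 0.572, and for that ratio the other 3 groups overlap each other. For C1qb per C1qc, Kdm7a-shRNA + Morphine (0.867 to 1.01) lies below Kdm7a-shRNA + Saline (1.05 to 1.15) and Ctrl + Morphine (1.05 to 1.29).

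The genes whose pattern over the 16 mice was most like each group of complement genes were found among 10022 known genes of at least 5 CPM, by the root mean square difference of mean-centred log2 CPM. For the mean of the C1q chain genes, whose own root mean square deviation was 1.04, they were Bcl2a1b (0.147), Ctsz (0.163), Fcer1g (0.171), Cd9 (0.174) and Olfml3 (0.183). Fcer1g encodes the common chain of Fc receptors, Ctsz a lysosomal protease, and Olfml3 is among the 18 microglia markers. For C4b, with its own deviation of 1.01, they were H2-D1 (0.275), Ifitm3 (0.278), B2m (0.305), Lgals3bp (0.309) and H2-K1 (0.310). H2-D1, H2-K1 and B2m encode chains of major histocompatibility complex class I. For Serping1, with 0.934, they were Efemp1 (0.320), Fbln5 (0.355), Tspan4 (0.362), Cd48 (0.363) and Myo1e (0.370), of which Efemp1 and Fbln5 encode extracellular matrix proteins. Reads of Bcl2a1b, H2-D1 and H2-K1 can be shared with near-identical family members. The 16 mice include the group differences, so likeness here reflects groups as well as mice.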

How the data were processed

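Gene-level read counts of 16 mPFC samples were taken from the deposited table. Per the study's methods, the authors set a minimum quality and length for nanopore cDNA reads, discarded rRNA, kept full-length reads, aligned them to mm10 with minimap2, built consensus isoforms and counted reads per gene. The table has 1 column per sample. The submitters' processing notes name edgeR 3.8.6. The deposited CPM columns are the authors' counts scaled to each column total and were used only as a check. Read counting was not stated to use strand. The columns hold 6596991 to 12418112 counts, and intervals from counts cover counting error only.

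The counts went into edgeR 4.0.16 under R 4.3.3 (trimmed mean of M values scaling, filterByExpr on the 4 groups, 18826 of 26625 entries kept, quasi-likelihood test with 1 coefficient per group over all 16 mice, Benjamini-Hochberg adjustment over all tested entries). Adjusted p-values come from that fit, except those of the C1q ratios, adjusted over the 12 ratio comparisons, and those given for fits with mice left out. Normalized CPM divides counts by the scaled library size, and log2 CPM used a prior count of 2. Marker scores, C1q ratios (exact permutation tests) and pattern likeness were computed from those values. DESeq2 1.42.0 and edgeR's exact test, other scalings and filters, a replicate block, known genes only and leaving out mice were tried. The scripts were tested on simulated data. Positions are from GENCODE vM21 and promoters from RefSeq GRCm38.p6, the same build as mm10.

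Named genes were the 9 members, Kdm7a, Itgb2, cascade genes past the threshold under saline or morphine, the 5 genes of most similar pattern and the 2 most read markers of each cell type. Others, such as Cd55 or Hc, are named only as examples chosen after their values were seen. The members and lists were chosen with earlier results of these data known. C4a, Mbl1, Fcnb, C9 and Vsig4 were not analysed here.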

Additional observations from a re-analysis of the deposited data

Results flagged for a closer look

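Of 27 sets of 4 or 5 mice tested for a value far from the others (each of the 9 genes in each group of 4 or more mice), 1 stood out: Itgam in Kdm7a-shRNA + Morphine mouse 3, at 78.9 CPM, with a gap to the next mouse that was 0.849 of the group's range. Chance gives about 1 in 20 sets. The same mouse was the deepest library and was the highest of its group for 9 of 9 genes, and its summed microglia marker level was 10879.8 CPM. Without it the count of complement genes past the threshold under morphine went from 5 to 0.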

How the results depend on the processing

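The count of complement genes higher with the hairpin was most fragile under morphine. Against 5 of 9, it was 2 with a fit of the 2 groups compared alone, 2 with known genes only and 8 with edgeR's exact test. It was 0 without both Ctrl + Morphine mouse 2 and Kdm7a-shRNA + Morphine mouse 3, a choice made after seeing the data, and 0 to 9 with each mouse left out in turn. Under saline it was 7, from 1 to 7 with each mouse left out and 5 to 8 under the other settings. Over both treatments it was 9, from 8 to 9 with each mouse left out and 7 to 9 under the others, and a minimum of 10 counts in every mouse left C3 and C5ar1 untested. No hairpin comparison turned its direction for any of the 9 genes under any setting.

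With the replicate number as a block the count was 6 under saline (Itgam lost), 5 under morphine and 9 over both, with no other call changed. Same-numbered mice of different groups are different animals: over 21 such pairs the correlation of deviations had a median of 0.0139 and a range of -0.10 to 0.39, and 6 exceeded 0.1. Since not every pair did, the mice were not treated as paired. As a hint from the data only, 8 of 16 mice correlated best with a mouse of their own number.

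Values near 0 in the morphine and interaction comparisons, none of them called, changed sign with the setting. With the replicate block the log2 interaction was -0.21 for C1qa, -0.054 for C1qc and -0.088 for C3ar1, and morphine under the control virus was 0.21 for C1qb and 0.014 for C4b. Without both mice the interaction was -0.79 for C1qa, -0.68 for C1qc, -0.39 for C3, -0.66 for C3ar1 and -0.49 for C5ar1, morphine under the control virus was 0.23 for C1qb, 0.040 for C3 and 0.000691 for C4b, and morphine under the hairpin was -0.13 for Serping1. For C1qb, morphine under the control virus was 0.0070 with library size only and 0.0028 with the groups compared alone, and for C3, morphine under the hairpin was 0.024 with library size only. The Serping1 interaction was 0.013 with DESeq2-type size factors, 0.0076 with library size only, 0.0058 without a filter, 0.013 with the 10-count minimum, 0.000455 with DESeq2 and 0.021 with known genes only.

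With each mouse left out, the interaction ranged from -0.54 to 0.28 for C1qa, -0.46 to 0.47 for C1qc, -0.052 to 0.83 for C3, -0.47 to 0.33 for C3ar1, -0.40 to 0.20 for C4b, -0.47 to 0.37 for C5ar1, -0.69 to 0.20 for Itgam and -0.27 to 0.36 for Serping1. Morphine under the control virus ranged from -0.22 to 0.23 for C1qb, -0.84 to 0.041 for C3, -0.61 to 0.00027 for C4b and -0.24 to 0.36 for Serping1. Morphine under the hairpin ranged from -0.35 to 0.35 for C3, -0.76 to 0.042 for C3ar1 and -0.13 to 0.33 for Serping1. The cause of these changes was not tested. Low counts limit C5ar1, C3 and C1s1, and 3 Ctrl + Saline mice limit every comparison with that group.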
